A study of Mus musculus with 24 samples.

Results

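Genes of the oligodendrocyte lineage were followed in 2 thalamic nuclei of newborn mice, from the transcription factors that specify the lineage to the proteins and lipid enzymes of myelin. Earlier results of these data were known, but the 35 genes were taken by their annotated symbols, without use of their values. Of these, 32 were measured among 18194 genes in all, as 6 transcription factors, 4 precursor surface or matrix genes, 6 genes of committed or premyelinating cells, 12 myelin membrane or cytoskeleton genes and 4 enzymes. The array annotation listed no probe set for Zfp488, a zinc finger transcription factor, or for Enpp2, a secreted phospholipase. The probe set of Trf, the iron carrier transferrin, was listed with several symbols, and these 3 genes were not analysed here.

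Oligodendrocyte precursors carry the receptor for platelet-derived growth factor and divide, then leave the cycle, pass through a committed stage marked by the receptor Gpr17, and wrap axons in myelin. The transcription factors Olig2 and Sox10 act from the start of the lineage, whereas Myrf switches on the genes of the mature sheath. In the rodent forebrain precursors are present at birth and most myelin forms in the following weeks.

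Tissue came from wild-type mice on a C57BL/6 background. In embBE mice (embryonic bilateral enucleation) both eyes had been cauterized in utero, and control mice were littermates that had not been enucleated. The VB (ventrobasal complex, the somatosensory relay, named VPM in the study) and the dLGN (dorsal lateral geniculate nucleus, the visual relay) were microdissected at P4 and at P0, the postnatal days 4 and 0. Each sample pooled a nucleus from pups of the same litter and condition, and its RNA was amplified in 2 rounds and hybridized to 1 Affymetrix array. There were 3 embBE and 3 control arrays for VB at P4, VB at P0 and dLGN at P4, and 4 embBE and 2 control arrays for dLGN at P0, which makes 24. A number pair in the sample labels (for example 39_5) identifies the array, but its meaning is not stated, and p-values measure the spread between pools. The values are log2 signals normalized by RMA, and the number of arrays limits their precision.

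Lineage markers gave signal on every array, with Olig1 between 10.52 and 13.21 and Pdgfra between 9.80 and 11.47 on the 24 arrays. The mean signals of Mog, Cldn11 and Ermn were at the 3.1, 4.2 and 7.5 percentiles of all genes, which limits what the arrays show of these 3 genes. The list mean of 12 thalamic relay neuron markers lay between 9.55 and 10.33 on all arrays. On VB control arrays 35_1 (P0) and 36_3 (P4) the signals were less spread (SD 2.223 and 2.262, against 2.332 to 2.417 on the other VB arrays). These arrays also had wider gaps between the 3′ and 5′ actin probe sets (4.294 and 3.141, against 1.953 to 2.977), a sign of shorter RNA or copies. In dLGN the SD was 2.165 to 2.406 and the gap 2.205 to 4.271. Control pool 39_5 at P0 had the highest list mean of GABAergic neuron markers of neighbouring nuclei in each nucleus, 6.83 in VB (5.37 to 5.86 on the other VB arrays) and 7.02 in dLGN (5.75 to 6.39 on the other dLGN arrays).

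The change with age was the clearest pattern among these genes, and its calls were mostly in VB. A difference between the nuclei in this change was not shown, as given below. At P4, 11 of 32 members were higher than at P0 in embBE VB and 9 of 32 in control VB, and none was lower (limma, Benjamini-Hochberg adjusted p under 0.05 over all genes). Across all genes 2.69% were higher and 0.731% lower in embBE VB, and 2.32% higher and 1.45% lower in control VB. The median log2 change of the members was 0.39 in embBE VB and 0.37 in control VB, beside -0.04 and -0.03 for all genes. On the main probe sets, those that rose were 4 of 6 committed or premyelinating genes, 3 of 6 transcription factors, 1 of 12 myelin membrane genes and 1 of 4 enzymes in either condition, and 2 of 4 precursor surface or matrix genes in embBE VB. Roles were not tested against each other, and other probe sets of Mbp, a myelin membrane gene, rose as well. In such tissue samples more cells of a type and more RNA per cell cannot be told apart.

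Markers of astrocytes moved with age as well. Of 12 astrocyte markers, 6 were higher at P4 in embBE VB and 6 in control VB. Their list mean was 10.09 to 10.17 in P4 embBE VB, against 8.84 to 9.04 in P0 embBE VB, and 9.88 to 10.23 in P4 control VB, against 8.88 to 9.32 in P0 control VB. Of 10 neuron markers none passed in limma (1 at an unadjusted p under 0.05 in embBE VB and 3 in control VB), and 1 of 9 microglia markers was higher at P4 in either condition. The actin gap was 1.980, 2.055 and 1.983 in P4 embBE VB, against 2.433, 2.249 and 2.547 in P0 embBE VB, without overlap. In control VB it was 1.953, 3.141 and 2.297 at P4, against 4.294, 2.195 and 2.977 at P0, and the ages overlapped. The part of other glia and of RNA length in the change of the members was not tested.

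Gpr17, a G protein-coupled receptor of committed precursors, had log2 signals of 9.54, 9.58 and 9.23 in P4 embBE VB, against 7.34, 7.94 and 8.03 in P0 embBE VB. In control VB it had 9.26, 8.55 and 9.24 at P4, against 7.59, 7.91 and 7.84 at P0. Every P4 array was above every P0 array, with control 36_3 the lowest at P4. The rise was 3.21-fold in embBE VB (log2 change 1.68, SE 0.21, adjusted p = 0.00154) and 2.36-fold in control VB (1.24, SE 0.21, adjusted p = 0.00848). In dLGN the P4 values were 8.48, 8.91 and 8.37 on embBE arrays, against 7.23, 7.53, 7.09 and 7.07 at P0, and 8.49, 7.90 and 7.95 on control arrays, against 6.98 and 7.09 at P0. The ages did not overlap in dLGN either. Gpr17 was the member that passed in embBE dLGN (2.56-fold, log2 change 1.35, SE 0.18, adjusted p = 0.00508), and in control dLGN its change of 1.08 (SE 0.22) had an adjusted p of 0.0536.

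Bcas1, which encodes a protein of oligodendrocytes that are starting to myelinate, had the largest change among the members' main probe sets in VB. It was at 10.29, 10.51 and 9.78 in P4 embBE VB, against 8.21, 8.35 and 8.68 in P0 embBE VB, and at 10.55, 9.87 and 10.28 in P4 control VB, against 8.97, 8.38 and 8.89 in P0 control VB. The ages were separated by more than the spread of any group, and the rise was 3.43-fold in embBE VB (1.78, SE 0.23, adjusted p = 0.00154) and 2.8-fold in control VB (1.48, SE 0.23, adjusted p = 0.00491). In dLGN it was at 9.50, 9.58 and 9.08 on P4 embBE arrays, against 8.95, 8.41, 8.70 and 8.08 at P0, and at 9.25, 8.82 and 9.33 on P4 control arrays, against 8.20 and 8.12 at P0. These groups did not overlap, but neither change passed (0.86, SE 0.21, adjusted p = 0.0751 and 0.97, SE 0.25, adjusted p = 0.142). Both other probe sets of Bcas1 changed by -0.04 and 0.21 in embBE VB and by 0.06 and 0.15 in control VB, so the rise is that of 1 probe set.

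Of the other committed or premyelinating genes, Tspan2, a tetraspanin of the oligodendrocyte membrane, was at 8.53, 8.48 and 8.42 in P4 embBE VB, against 8.09, 7.64 and 7.89 in P0 embBE VB. In control VB it was at 8.46, 8.46 and 8.50 at P4, against 7.66, 7.79 and 7.62 at P0. The P4 arrays lay close together and above all P0 arrays, and the rise was 1.51-fold in embBE VB (0.60, SE 0.11, adjusted p = 0.0146) and 1.72-fold in control VB (0.79, SE 0.11, adjusted p = 0.00372). Bmp4, a secreted growth factor that newly committed cells express for a time, was at 5.86, 6.26 and 5.63 in P4 embBE VB, against 5.05, 5.30 and 5.24 in P0 embBE VB, and at 6.41, 5.99 and 5.77 in P4 control VB, against 5.45, 5.24 and 5.36 in P0 control VB. Its P4 arrays were more scattered than its P0 arrays but did not overlap with them (1.65-fold, 0.73, SE 0.18, adjusted p = 0.0449 in embBE VB and 1.63-fold, 0.71, SE 0.18, adjusted p = 0.0474 in control VB). Enpp6, a choline phosphodiesterase of newly formed oligodendrocytes, and Sirt2, a tubulin deacetylase, did not pass (embBE VB 0.57 and 0.32, control VB 0.47 and 0.13). Leaving out 1 of several arrays ended the calls of Bmp4 in embBE VB (any array but P4 40_3) and in control VB (any but P4 36_3), with changes between 0.53 and 0.87 over all alternatives. Tspan2 in embBE VB was lost without P0 39_3, P0 39_4, P4 24_4 or P4 36_2 (0.48 to 0.83).

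Among the transcription factors, Sox8, a relative of Sox10, was at 5.86, 6.00 and 5.98 in P4 embBE VB, against 5.57, 5.49 and 5.44 in P0 embBE VB, and at 6.36, 6.32 and 6.38 in P4 control VB, against 5.47, 5.46 and 5.59 in P0 control VB. The P4 arrays formed separate groups above the P0 arrays, with the control pools higher than the embBE pools (1.36-fold, 0.44, SE 0.09, adjusted p = 0.0209 in embBE VB and 1.81-fold, 0.85, SE 0.09, adjusted p = 0.000748 in control VB). Olig2, which specifies the lineage, was at 7.97, 7.92 and 7.85 in P4 embBE VB, against 7.50, 7.42 and 7.44 in P0 embBE VB, and at 8.09, 8.19 and 8.23 in P4 control VB, against 7.46, 7.30 and 7.69 in P0 control VB. Again the ages did not overlap (1.38-fold, 0.46, SE 0.11, adjusted p = 0.0357 in embBE VB and 1.6-fold, 0.68, SE 0.11, adjusted p = 0.00561 in control VB). Nkx2-2, a homeodomain factor of differentiating cells that was described after its values had been seen, rose 1.87-fold in embBE VB (0.90, SE 0.15, adjusted p = 0.00589) and 1.9-fold in control VB (0.93, SE 0.15, adjusted p = 0.00533). Olig1, Sox10 and Myrf did not pass in VB. Olig1 was at 13.10, 13.10 and 13.15 in P4 embBE VB, against 12.40, 12.49 and 12.45 in P0 embBE VB, without overlap. In control VB it was at 13.21, 12.37 and 13.11 at P4, against 11.74, 12.74 and 12.49 at P0, and the ages overlapped. In embBE VB, Olig2 lost its call without any 1 of the 6 arrays (0.44 to 0.50 over all alternatives), and Sox8 without any but P4 24_4 (0.41 to 0.54).

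Sox10, an activator of myelin genes that is present throughout the lineage, was at 8.87, 8.49 and 8.76 in P4 embBE VB, against 8.29, 8.35 and 8.48 in P0 embBE VB, and at 8.77, 8.97 and 8.77 in P4 control VB, against 8.99, 8.45 and 8.62 in P0 control VB. The embBE arrays were higher at P4, by a log2 change of 0.34 (SE 0.15, adjusted p = 0.267), and the control arrays overlapped. On 1424985_a_at Sox10 was at 7.10, 7.09 and 6.99 in P4 embBE VB, against 7.26, 7.11 and 7.26 in P0 embBE VB. On 1425369_a_at it was at 5.56, 5.19 and 5.30, against 5.42, 5.50 and 5.68. The higher P4 values are thus those of 1 of 3 probe sets. The defining surface markers of precursors did not pass either. Pdgfra, the receptor for platelet-derived growth factor, was at 11.47, 11.13 and 11.33 in P4 embBE VB, against 11.01, 11.09 and 11.28 in P0 embBE VB, and at 11.32, 10.86 and 11.26 in P4 control VB, against 10.59, 10.94 and 10.91 in P0 control VB. Its ages overlapped in both conditions. Cspg4, the NG2 proteoglycan, was at 8.08, 8.15 and 7.77 in P4 embBE VB, against 8.01, 7.98 and 8.34 in P0 embBE VB, and at 7.96, 8.24 and 8.02 in P4 control VB, against 8.60, 7.92 and 8.05 in P0 control VB, so that ages overlapped there too. The remaining genes of this role were Lhfpl3, a tetraspan membrane protein gene, and Matn4, a matrilin of the matrix. Both passed in embBE VB (0.66, SE 0.15, adjusted p = 0.0355 and 0.56, SE 0.13, adjusted p = 0.0357), but lost the call without any 1 of the 6 arrays (0.55 to 0.73 and 0.51 to 0.65).

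Pllp was the member of the myelin membrane group whose main probe set rose. This gene encodes plasmolipin, a proteolipid of the sheath, and it was at 7.72, 7.80 and 7.63 in P4 embBE VB, against 7.01, 6.84 and 7.09 in P0 embBE VB, and at 7.85, 7.77 and 7.79 in P4 control VB, against 7.17, 6.87 and 7.11 in P0 control VB. The ages were far apart relative to the spread, and the rise was 1.67-fold in embBE VB (0.74, SE 0.11, adjusted p = 0.00343) and 1.68-fold in control VB (0.75, SE 0.11, adjusted p = 0.00366). Among the enzymes Aspa rose, which encodes aspartoacylase, the enzyme that frees acetate from N-acetylaspartate. It was at 6.73, 6.69 and 6.62 in P4 embBE VB, against 5.79, 5.72 and 5.86 in P0 embBE VB, and at 6.62, 6.45 and 7.06 in P4 control VB, against 5.90, 6.02 and 6.18 in P0 control VB. Its groups did not overlap (1.85-fold, 0.89, SE 0.14, adjusted p = 0.00565 in embBE VB and 1.6-fold, 0.68, SE 0.14, adjusted p = 0.0222 in control VB). In control VB the call of Aspa ended without P0 35_1, P4 24_2 or P4 40_1 (0.50 to 0.81 over all alternatives).

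The 3 other enzymes, which unlike Aspa belong to sphingolipid synthesis, did not pass. Ugt8a, which makes galactosylceramide, changed by 0.95 (SE 0.28, adjusted p = 0.0894) in embBE VB and by 0.85 (SE 0.28, adjusted p = 0.113) in control VB. Fa2h, which hydroxylates fatty acids, changed by 0.43 and 0.41, and Gal3st1, which makes sulfatide, by 0.36 in embBE VB. Most genes of compact or mature myelin stayed near their P0 signal on the main probe set. In embBE VB, Mog, a protein of the sheath's outer surface, changed by -0.12, Mobp, a basic protein, by 0.10, Cnp, a cyclic nucleotide phosphodiesterase, by 0.12, and Opalin, a glycoprotein of the paranodal loops, by -0.23. Mag, which links sheath to axon, changed by -0.38 (SE 0.10, adjusted p = 0.0668). Both other probe sets of Cnp were higher at P4 in embBE VB, without overlap. On 1418980_a_at Cnp was at 8.74, 8.52 and 8.57 at P4, against 8.18, 8.41 and 8.20 at P0. On 1449296_a_at it was at 8.12, 7.88 and 7.92, against 7.78, 7.81 and 7.72. In control VB the ages overlapped on 1418980_a_at but not on 1449296_a_at.

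The counts in embBE VB depended on the arrays in the fit. Leaving out any 1 of its 6 arrays left 5 to 7 members called in place of 11, and a fit with its 2 groups alone called 20 (18 higher and 2 lower). Calls among all genes in these fits are not set beside these counts, so whether all genes moved alike is not shown here. The plot of the 8 members with the largest change shows the values by array, and the plot of all 32 members shows their change with age.

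**Figure D1:**
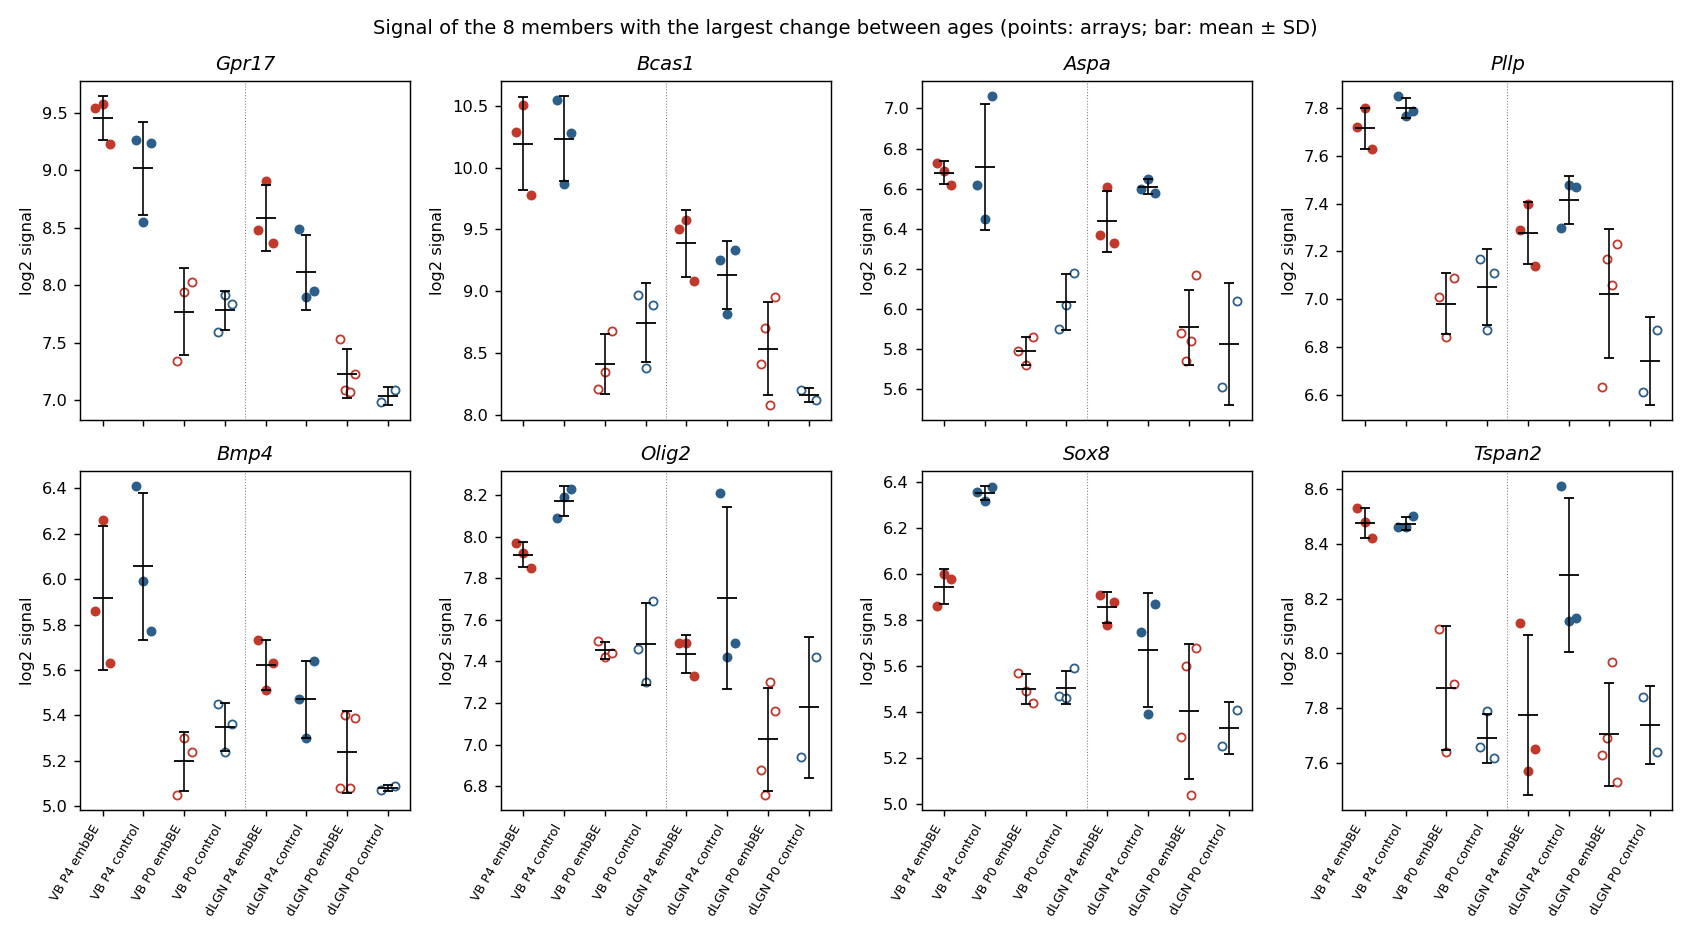
Log2 signal of the 8 members with the largest change between ages (vertical axes) on each array in the 8 groups, with P4 points filled, P0 points open, embBE red and control blue, and bars for mean ± SD. In VB the P4 arrays of each gene lie above the P0 arrays of the same condition, for example 9.23 to 9.58 against 7.34 to 8.03 for Gpr17 in embBE VB.

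**Figure D2:**
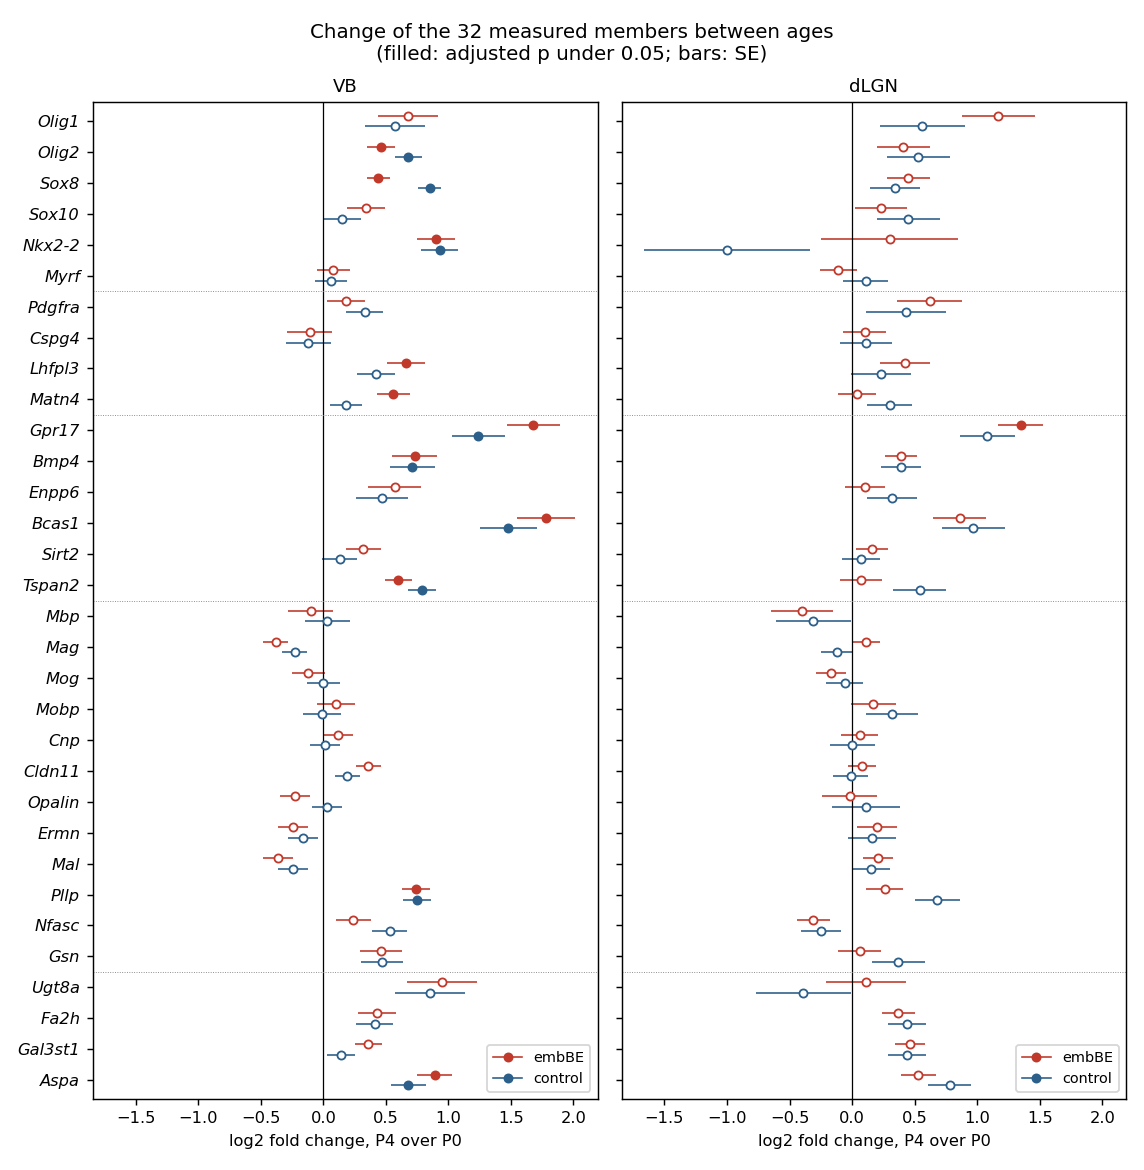
Log2 fold change of P4 over P0 (horizontal axes) for the 32 measured members in VB and in dLGN, with embBE red and control blue, bars for SE, and filled points for an adjusted p under 0.05. In VB 11 embBE and 9 control points are filled, all above 0, and in dLGN only that of Gpr17 on embBE arrays.

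In dLGN, 1 member was higher at P4 in embBE mice and none in control mice, and none was lower in either. Of all genes 0.632% were higher and 0.39% lower in embBE dLGN, and 0.253% higher and 0.308% lower in control dLGN. At an unadjusted p under 0.05 the control dLGN comparison held 8 members and the embBE comparison 10. The shares of all genes above are at the adjusted level and do not pair with these counts, which are therefore not a result about the members. The median member changed by 0.19 in embBE dLGN and 0.31 in control dLGN (all genes 0.01 and 0.04). In control dLGN the lowest adjusted p was that of Gpr17, and the mean of each gene's probe sets called 2 members there.

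Whether the age change was larger in VB than in dLGN was tested directly as a difference of the changes. No member passed in embBE mice or in control mice, beside 0.055% and 0.022% of all genes. Bcas1 differed by 0.92 in embBE mice (SE 0.33, adjusted p = 0.856). Without dLGN P0 control array 35_1 the control comparison held 1 member. The larger number of calls in VB is therefore not shown to be a difference between the nuclei.

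Mbp, the basic protein that compacts the myelin membrane, was read by 8 probe sets, and these fell into a pair of patterns. On the main probe set, 1425264_s_at, Mbp was at 8.69, 8.78 and 8.69 in P4 embBE VB, against 8.85, 8.58 and 9.05 in P0 embBE VB, and at 9.39, 8.73 and 8.69 in P4 control VB, against 8.72, 9.01 and 8.98 in P0 control VB. These overlapped, and 1425263_a_at and 1451961_a_at did not pass with age in VB either. On 1433532_a_at, in contrast, Mbp was at 10.32, 10.35 and 9.21 in P4 embBE VB, against 7.22, 7.16 and 7.60 in P0 embBE VB, and at 10.47, 9.50 and 9.85 in P4 control VB, against 7.33, 7.31 and 7.82 in P0 control VB. Each P4 array exceeded each P0 array. The rise was 6.19-fold in embBE VB (2.63, SE 0.30, adjusted p = 0.00135 over 34958 probe sets) and 5.49-fold in control VB (2.46, SE 0.30, adjusted p = 0.00198).

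In all, 5 of the 8 Mbp probe sets rose in VB, by 1.94 to 2.63 in embBE mice and by 1.91 to 2.46 in control mice. Of the 67 probe sets of members, 16 were higher in embBE VB and 14 in control VB, beside 2.27% and 2.01% of all probe sets. Which Mbp transcripts each probe set reads is not given in the sources used here. In dLGN the same 5 Mbp probe sets changed by 0.53 to 0.87 in embBE mice and by 0.22 to 0.77 in control mice, and none passed. On 1433532_a_at the dLGN values of Mbp were 8.77, 7.69 and 5.97 on P4 embBE arrays, against 7.06, 6.13, 5.96 and 7.29 at P0, and 7.62, 5.61 and 5.88 on P4 control arrays, against 6.40 and 5.45 at P0. The P4 arrays of dLGN were spread over most of the range, with 24_4 the highest embBE array and 24_2 the highest control array. These arrays had the narrowest actin gaps at P4 in dLGN, 3.335 and 2.205, against 3.643 to 4.129 on the other P4 dLGN arrays, and the part of RNA length in these Mbp values was not tested.

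**Figure D3:**
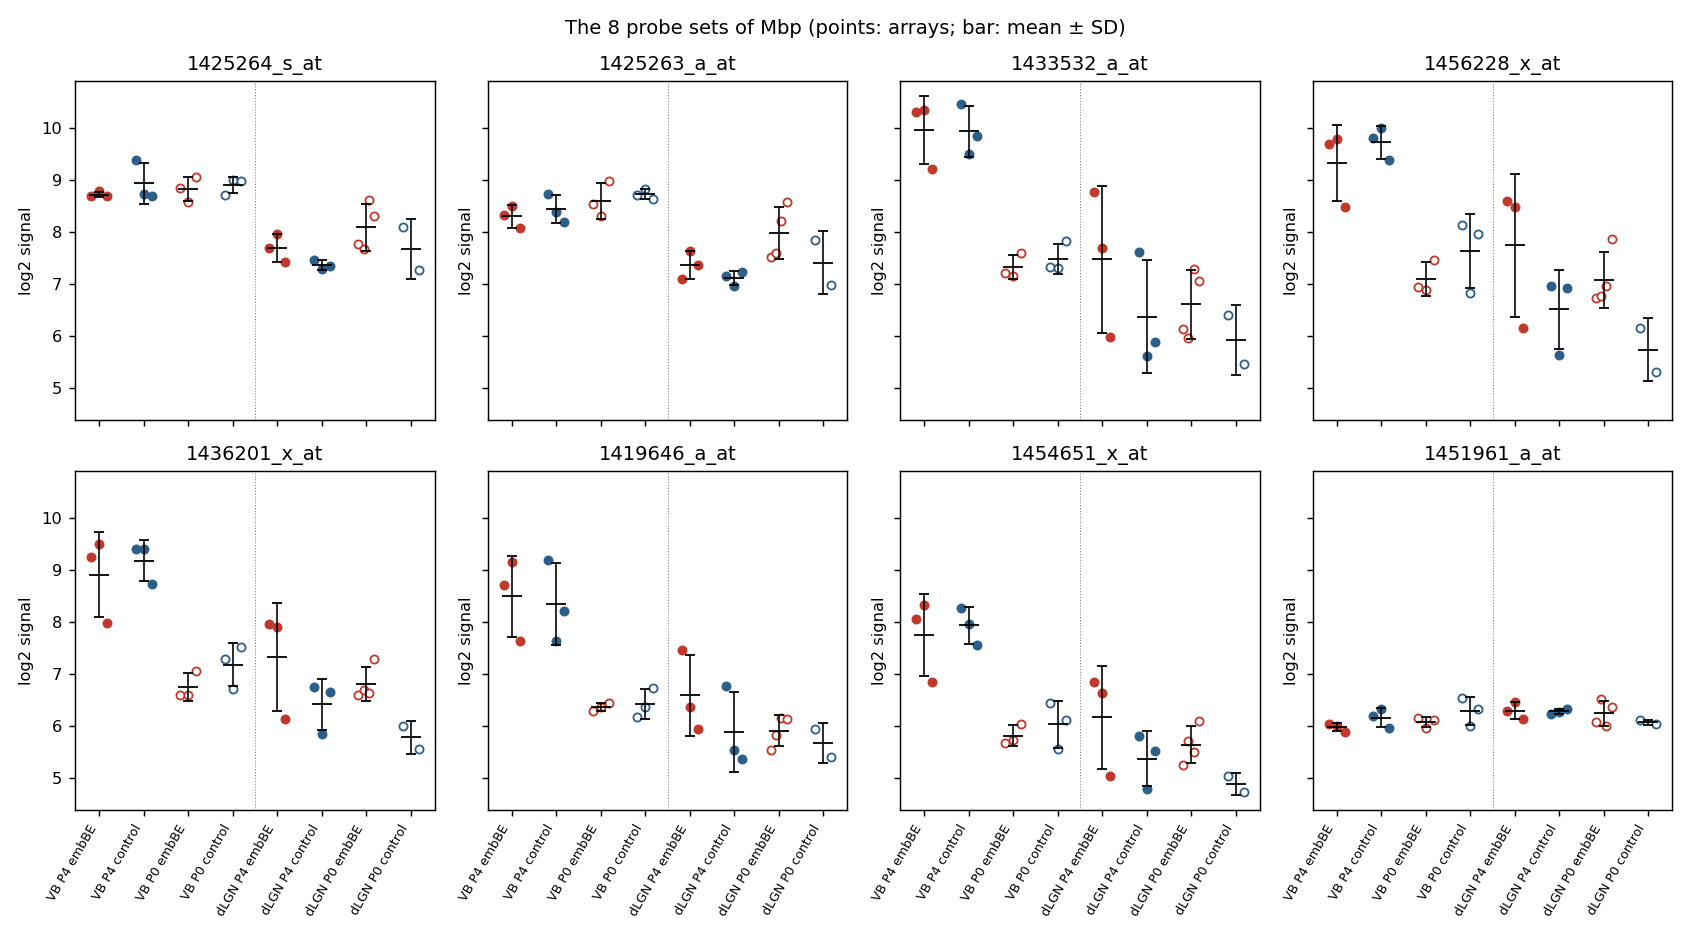
Log2 signal of the 8 Mbp probe sets (vertical axes, shared scale) on each array in the 8 groups, with P4 points filled, P0 points open, embBE red and control blue, and bars for mean ± SD. In VB 5 probe sets are higher at P4 than at P0, by 1.91 to 2.63 on the log2 scale, and 3 are not.

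The promoters of the members, whether or not they rose, were searched for the letters that regulators of the lineage are known to bind. RefSeq promoter windows (build GRCm38.p6, 250 bases before to 50 after the start) were present for 26 of the 35 genes, in 35 windows. Motifs on both strands were ACAAAG and ACAATG (SOX factors), CAGCTG and CATATG (E-boxes, which Olig2 binds, and which read alike on either strand) and CTGGNAC (Myrf). The share of member windows with each motif, against that of 32851 windows of all genes, was 17.1% against 18.7% for ACAAAG, 17.1% against 12.6% for ACAATG, 22.9% against 16.3% for CAGCTG, 5.71% against 3.91% for CATATG and 25.7% against 19.3% for CTGGNAC. These shares are 6, 6, 8, 2 and 9 of the 35 member windows. Windows of a gene can overlap. A site of Gal3st1 (ACAATG) and sites of Mag (ACAAAG and CTGGNAC) were counted more than once for this reason. A match is a string of letters in the window and not a measured binding site.

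The windows of 4 members with a match follow, as examples of each motif, 5′ to 3′ on the gene's strand with the matches in capitals. Those of Olig2 (chr16:91225300-91225599, plus strand, ACAATG in reverse complement), Sox8 (chr17:25570637-25570936, minus strand, CTGGNAC in reverse complement), Aspa (chr11:73324588-73324887, minus strand, CAGCTG) and Tspan2 (chr3:102734965-102735264, plus strand, ACAAAG and CATATG) belong to genes that rose at P4 in VB of both conditions. Tspan2 has a window for each of 2 starts, which hold both CATATG matches of the 35 windows, and the downstream one is shown because it also holds ACAAAG.
Olig2: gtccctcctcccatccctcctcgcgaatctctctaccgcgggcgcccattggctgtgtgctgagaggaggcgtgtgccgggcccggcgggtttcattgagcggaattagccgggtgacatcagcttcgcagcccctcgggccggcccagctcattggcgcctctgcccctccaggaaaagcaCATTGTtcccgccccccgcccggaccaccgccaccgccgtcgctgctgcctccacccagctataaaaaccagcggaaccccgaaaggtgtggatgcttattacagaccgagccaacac
Sox8: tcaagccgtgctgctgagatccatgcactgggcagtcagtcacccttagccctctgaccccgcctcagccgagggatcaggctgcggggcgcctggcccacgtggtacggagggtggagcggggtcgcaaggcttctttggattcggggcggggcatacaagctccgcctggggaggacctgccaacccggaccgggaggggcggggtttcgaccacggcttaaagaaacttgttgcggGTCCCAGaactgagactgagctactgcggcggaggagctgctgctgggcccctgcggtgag
Aspa: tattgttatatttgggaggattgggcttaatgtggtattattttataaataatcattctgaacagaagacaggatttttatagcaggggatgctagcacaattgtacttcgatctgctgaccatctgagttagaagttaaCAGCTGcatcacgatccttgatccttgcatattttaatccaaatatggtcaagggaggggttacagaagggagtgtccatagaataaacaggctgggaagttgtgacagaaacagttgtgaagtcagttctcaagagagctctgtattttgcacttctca
Tspan2: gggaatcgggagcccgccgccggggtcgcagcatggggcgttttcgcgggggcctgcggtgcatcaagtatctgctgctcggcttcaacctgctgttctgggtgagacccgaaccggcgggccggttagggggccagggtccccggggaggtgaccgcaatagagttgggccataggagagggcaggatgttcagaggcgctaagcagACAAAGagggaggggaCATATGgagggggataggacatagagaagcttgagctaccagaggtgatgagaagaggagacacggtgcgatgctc

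VB and dLGN were next compared within each condition and age. At P4, 9 of 32 members differed in embBE mice, 7 higher and 2 lower in VB, beside 4.33% of all genes higher and 4.11% lower. In control mice at P4, 5 members were higher and 2 lower in VB, beside 1.73% and 1.48% of all genes. At P0, 2 were higher and 2 lower in VB of embBE mice (all genes 3.53% and 3.92%), and 1 was higher in VB of control mice (all genes 0.555% and 1.01%). Bcas1, Gpr17, Mbp and Nfasc were higher and Mag lower in VB at P4 in both conditions.

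Signs of RNA length and markers of other cells also differed between the nuclei. In embBE mice the actin gap was 1.980 to 2.055 in VB, against 3.335 to 3.940 in dLGN at P4, and 2.249 to 2.547 in VB, against 3.065 to 4.271 in dLGN at P0, with no overlap. In control mice it overlapped at P4 (1.953 to 3.141 in VB, against 2.205 to 4.129 in dLGN) and at P0 (2.195 to 4.294 in VB, against 3.255 to 4.053 in dLGN). In embBE mice at P4 the list mean of astrocyte markers was 10.09 to 10.17 in VB, against 9.53 to 9.85 in dLGN, that of neuron markers 12.57 to 12.73, against 11.84 to 12.42, and that of GABAergic markers 5.56 to 5.86, against 6.05 to 6.38. In control mice at P4 the GABAergic list mean was 5.51 to 5.73 in VB, against 6.10 to 6.39 in dLGN, whereas those of astrocytes (9.88 to 10.23, against 9.71 to 9.96) and neurons (12.20 to 12.68, against 11.75 to 12.70) overlapped. The part of RNA length and of these cells in the differences of the members was not tested.

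Mbp was higher in VB on its main probe set, by 2.05-fold in embBE mice (1.03, SE 0.24, adjusted p = 0.0132) and 2.97-fold in control mice at P4 (1.57, SE 0.24, adjusted p = 0.00046). The VB arrays given above stood against 7.69, 7.96 and 7.42 in P4 embBE dLGN and 7.47, 7.28 and 7.34 in P4 control dLGN, with no overlap. With each probe set fitted singly, 6 of 8 Mbp probe sets were higher in VB in embBE mice and 7 of 8 in control mice at P4, where 4.47% and 1.41% of all probe sets were. On 1433532_a_at Mbp was 5.59-fold higher in embBE VB (2.48, SE 0.58, adjusted p = 0.0138) and 11.9-fold higher in control VB (3.57, SE 0.58, adjusted p = 0.000887). At P0 Mbp was the member that differed in control mice (2.34-fold higher in VB, 1.23, SE 0.27, adjusted p = 0.0208). This call ended without dLGN array 39_5 or VB array 35_2 or 39_5, with values between 0.77 and 1.64 over all alternatives. At P4 in embBE mice the call on the main probe set ended without dLGN 40_3 or VB 36_2 (0.90 to 1.35).

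Nfasc encodes neurofascin, an adhesion protein of nodes and paranodes that neurons also make. It was at 9.33, 9.30 and 8.94 in P4 embBE VB, against 8.09, 8.43 and 8.15 in P4 embBE dLGN, and at 9.04, 9.43 and 9.10 in P4 control VB, against 8.11, 7.91 and 8.15 in P4 control dLGN. Every VB array was above every dLGN array, by 1.96-fold in embBE mice (0.97, SE 0.14, adjusted p = 0.000173) and 2.2-fold in control mice (1.13, SE 0.14, adjusted p = 3.77e-05). Both other probe sets of Nfasc differed by -0.18 and -0.17 in embBE mice, and by 0.00 and 0.01 in control mice, so the difference is that of 1 probe set.

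Gpr17 was 1.82-fold higher in VB than in dLGN in embBE mice at P4 (0.86, SE 0.22, adjusted p = 0.0192) and 1.87-fold in control mice (0.90, SE 0.22, adjusted p = 0.0209), and the P4 arrays of the nuclei did not overlap. Bcas1 was 1.74-fold higher in embBE mice (0.80, SE 0.24, adjusted p = 0.0437) and 2.14-fold in control mice (1.10, SE 0.24, adjusted p = 0.0103), again on its main probe set alone. Ugt8a was at 7.12, 7.60 and 7.32 in P4 embBE VB, against 6.66, 5.98 and 6.05 in P4 embBE dLGN, and at 7.55, 6.48 and 7.33 in P4 control VB, against 6.87, 6.24 and 5.70 in P4 control dLGN. The embBE arrays did not overlap (2.17-fold, 1.12, SE 0.34, adjusted p = 0.0451). The control arrays overlapped through VB 36_3 and dLGN 24_2 (0.85, SE 0.34, adjusted p = 0.251), and the other probe set of Ugt8a differed by -0.17 in embBE mice. Tspan2 (0.70, SE 0.16, adjusted p = 0.01) and Pllp (0.44, SE 0.14, adjusted p = 0.0497) were also higher in embBE VB, and Sox8 was higher in control VB (0.69, SE 0.14, adjusted p = 0.00611). In embBE mice the call of Pllp ended without any 1 of the 6 arrays, that of Bcas1 without any but VB 40_3, that of Ugt8a without any but dLGN 24_4, and those of Bcas1 and Ugt8a also with cyclic loess. Gpr17 lost its call without dLGN 40_3, VB 24_4 or VB 36_2 in embBE mice, and without dLGN 36_3, dLGN 40_1, VB 24_2 or VB 40_1 in control mice. Tspan2 lost it without dLGN 36_2 or 40_3, and in control mice Bcas1 lost it without dLGN 36_3 or VB 24_2 and Sox8 without dLGN 36_3.

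Olig1, a basic helix-loop-helix factor of the lineage, passed in embBE mice at P0. It was at 12.40, 12.49 and 12.45 in P0 embBE VB, against 11.11, 11.22, 10.52 and 11.45 in P0 embBE dLGN, with no overlap (2.58-fold higher in VB, 1.37, SE 0.28, adjusted p = 0.00552). In control mice at P0 it was at 11.74, 12.74 and 12.49 in VB, against 12.07 and 11.48 in dLGN, and the groups overlapped through VB 35_1. At P4 Olig1 was at 13.10, 13.10 and 13.15 in embBE VB, against 12.68, 11.92 and 12.12 in embBE dLGN, and at 13.21, 12.37 and 13.11 in control VB, against 12.89, 12.29 and 11.81 in control dLGN. Neither P4 difference passed (0.88, SE 0.30, adjusted p = 0.0654 and 0.56, SE 0.30, adjusted p = 0.442). Pdgfra was at 10.54, 10.40, 9.80 and 10.67 in P0 embBE dLGN, below the 3 VB arrays given above (0.77 higher in VB, SE 0.22, adjusted p = 0.0405). Its other probe sets differed by 0.27 and -0.23, and the call ended without any 1 of the P0 embBE arrays but dLGN 39_4.

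The members that were lower in VB differed by less than 1 on the log2 scale. Mag was lower in VB at P4, by a log2 difference of -0.53 in embBE mice (SE 0.10, adjusted p = 0.00361) and -0.39 in control mice (SE 0.10, adjusted p = 0.0373). Mal, a proteolipid of membrane sorting, differed by -0.41 in embBE mice (SE 0.12, adjusted p = 0.0442), and Gal3st1 by -0.46 in control mice (SE 0.12, adjusted p = 0.0317). At P0 in embBE mice Gsn, the actin-severing gelsolin, differed by -0.85 (SE 0.17, adjusted p = 0.00583) and Myrf by -0.55 (SE 0.14, adjusted p = 0.0174). The call of Mal ended without any 1 of the 6 arrays but VB 24_4 and with the mean of its probe sets (-0.49 to -0.20 over all alternatives), and that of Gal3st1 without any but dLGN 40_1 (-0.55 to -0.40). Mag in control mice lost its call without dLGN 36_3, dLGN 40_1, VB 24_2 or VB 40_1, and Myrf without dLGN 39_3, dLGN 35_3, VB 35_3 or VB 39_4, whereas Gsn and Mag in embBE mice kept theirs under every alternative run.

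Single arrays moved these counts. At P4 in embBE mice the 9 calls were 2 without dLGN 40_3, 3 without VB 36_2, 4 without dLGN 36_2 and 5 without VB 24_4. In control mice at P4 the 7 calls were 2 without dLGN 36_3 and 3 without VB 24_2. At P0 in embBE mice the 4 calls were 9 without dLGN 39_4 and 2 without dLGN 39_3, VB 35_3 or VB 39_4. Here too, calls among all genes in the same fits are not set beside the counts, so whether all genes moved alike is not shown. The plot of differences between nuclei shows all 32 members.

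**Figure D4:**
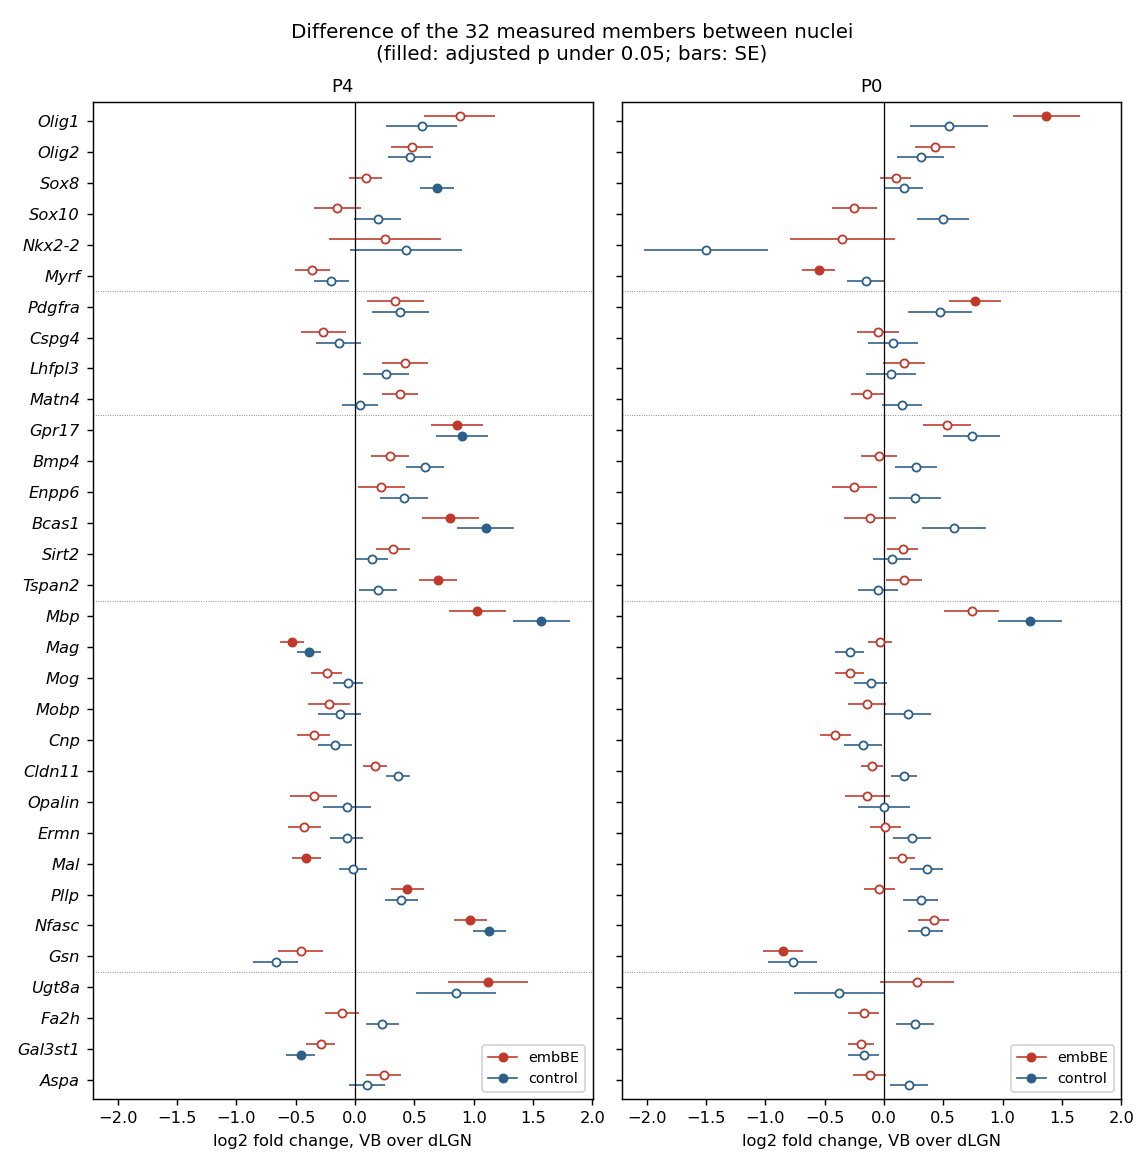
Log2 fold change of VB over dLGN (horizontal axes) for the 32 measured members at P4 and at P0, with embBE red and control blue, bars for SE, and filled points for an adjusted p under 0.05. At P4 Bcas1, Gpr17, Mbp and Nfasc are filled to the right of 0 and Mag to the left in both conditions.

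Enucleation itself was tested with the threshold of the study, at which a gene differs by 1.5-fold or more and has an unadjusted p under 0.05. No member met it in VB at P4, VB at P0, dLGN at P4 or dLGN at P0. Of all genes 0.143% were higher and 0.0165% lower in embBE VB at P4, 0.555% and 0.17% in VB at P0, 0.066% and 0.132% in dLGN at P4, and 0.0879% and 0.357% in dLGN at P0. After adjustment over all genes the lowest p of a member in limma was 0.751 in VB at P4, 0.679 in VB at P0, 1.0 in dLGN at P4 and 0.851 in dLGN at P0. An unadjusted p under 0.05 was reached by 2 members in VB at P4 (Sox8 and Olig2), 0 in VB at P0, 2 in dLGN at P4 (Gpr17 and Tspan2) and 1 in dLGN at P0 (Mag, -0.28). The shares of all genes above include the 1.5-fold limit and do not pair with these counts, which are therefore not a result about the members. The methods' t-test called 0 members at the threshold in each comparison. The difference of the embBE effect between ages and between nuclei was passed by 0 members, as by 0% of all genes.

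By p-value the lowest member was Sox8 in VB at P4. Sox8 was at 5.86, 6.00 and 5.98 in embBE VB, against 6.36, 6.32 and 6.38 in control VB. The groups did not overlap, and the log2 difference was -0.41 (SE 0.09, 95% interval -0.61 to -0.21, adjusted p = 0.751), a ratio of 0.752 that lies inside the 1.5-fold limit. Olig2 was lower in each embBE array than in each control array as well (-0.25, SE 0.11, interval -0.49 to -0.02, adjusted p = 0.751). In dLGN at P4 Sox8 was at 5.91, 5.78 and 5.88 in embBE mice, against 5.75, 5.39 and 5.87 in control mice, and Olig2 at 7.49, 7.49 and 7.33, against 8.21, 7.42 and 7.49, so that both genes overlapped there. The embBE effect on Sox8 at P4 differed between VB and dLGN by -0.60 (SE 0.20, adjusted p = 0.977).

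Among committed genes in dLGN at P4, Gpr17 was at 8.48, 8.91 and 8.37 in embBE mice, against 8.49, 7.90 and 7.95 in control mice. The groups overlapped through control array 24_2, and the difference was 0.47 (SE 0.19, interval 0.05 to 0.89, adjusted p = 1.0). In VB at P4 it was 0.43 (SE 0.21, interval -0.03 to 0.90). Tspan2 in dLGN at P4 was at 8.11, 7.57 and 7.65 in embBE mice, against 8.61, 8.12 and 8.13 in control mice, without overlap (-0.51, SE 0.19, interval -0.91 to -0.10, adjusted p = 1.0). On both other probe sets of Tspan2 these groups overlapped. On 1424567_at Tspan2 was at 7.39, 6.62 and 6.56 in embBE mice, against 8.21, 7.19 and 5.89 in control mice. On 1432417_a_at it was at 7.36, 7.65 and 7.24, against 7.35, 7.40 and 7.60. Olig1 in dLGN at P0 was at 11.11, 11.22, 10.52 and 11.45 in embBE mice, against 12.07 and 11.48 in control mice. The groups did not overlap and the difference exceeded 1.5-fold, but its interval held 0 (-0.70, SE 0.33, interval -1.41 to 0.01, adjusted p = 0.851). The widest difference in dLGN at P0 was that of Nkx2-2 (-1.31, SE 0.63, interval -2.67 to 0.05), which was at 6.58, 6.78, 6.86 and 7.76 in embBE mice, against 6.74 and 9.87 in control mice. The value of 9.87 belongs to pool 39_5, the array with the highest GABAergic marker mean, and the part of neighbouring tissue was not tested.

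Of the 32 members, 9 were above and 23 below 0 in VB at P4, 6 and 26 in VB at P0, 19 and 13 in dLGN at P4, and 23 and 9 in dLGN at P0. The medians were -0.05, -0.08, 0.05 and 0.11, beside -0.02, -0.03, 0.01 and 0.03 for all genes, and members are not independent of each other. Myelin membrane genes ran from -0.28 (Mag) to 0.41 (Mbp) in dLGN at P0. With probe sets fitted singly, 1 of 67 met the study's threshold in dLGN at P0 (Mbp on 1436201_x_at, 1.02 higher in embBE mice, SE 0.45, adjusted p = 0.863), where 0.106% of all probe sets were called higher. In dLGN at P0 single arrays set the count, with 4 members called without embBE 39_4, 2 without control 35_1 and 1 without control 39_5, and in dLGN at P4 there was 1 without embBE 24_4, control 24_2 or control 36_3. The plot of embBE against control shows these differences for all 32 members.

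**Figure D5:**
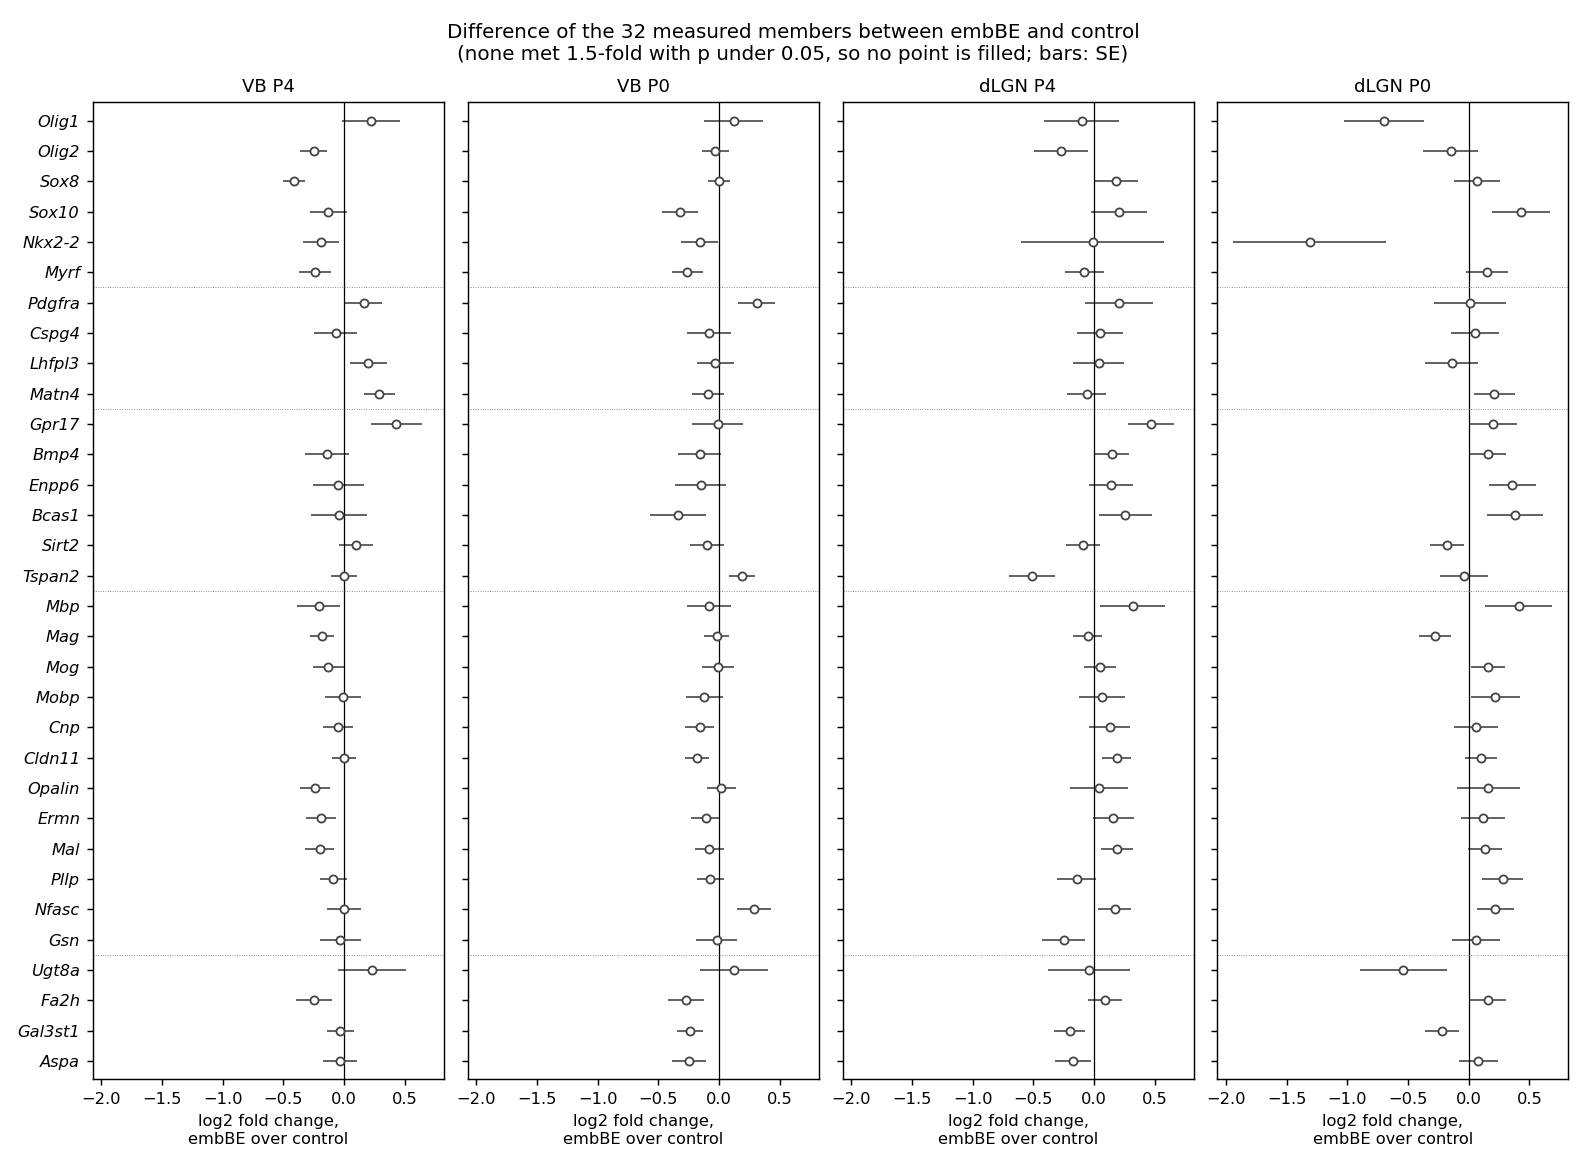
Log2 fold change of embBE over control (horizontal axes) for the 32 measured members in VB at P4 and P0 and in dLGN at P4 and P0, with bars for SE and open points because no member met the study's threshold. The values lie between -0.41 and 0.43 in VB at P4 and between -1.31 and 0.43 in dLGN at P0, where Nkx2-2 is lowest.

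A wider list of 52 other oligodendrocyte lineage genes and 34 signals and regulators of the lineage gave the setting of these changes. Of the lineage genes, 8 rose and 2 fell at P4 in embBE VB and 9 rose and 2 fell in control VB, whereas 1 rose in dLGN of each condition. Of all genes 2.69% rose and 0.731% fell in embBE VB, 2.32% and 1.45% in control VB, 0.632% and 0.39% in embBE dLGN, and 0.253% and 0.308% in control dLGN. Cryab, a small heat shock protein of oligodendrocytes and astrocytes, rose 2.79-fold in embBE VB (1.48, SE 0.22, adjusted p = 0.00316) and 3.27-fold in control VB (1.71, SE 0.22, adjusted p = 0.00169). Ptprz1, a receptor phosphatase of precursors and astrocytes, was 2.52-fold higher in VB than in dLGN of embBE mice at P0 (1.33, SE 0.32, adjusted p = 0.0156). Sgk1, a serum-induced kinase, was 3.44-fold higher in the same comparison (1.78, SE 0.36, adjusted p = 0.00474).

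Of the signals and regulators, 4 rose at P4 in embBE VB and 5 in control VB, and none fell there. Gpr37l1, a glial receptor that astrocytes also carry, rose 6.54-fold in embBE VB (2.71, SE 0.20, adjusted p = 3.45e-05) and 5.79-fold in control VB (2.53, SE 0.20, adjusted p = 8.28e-05). Pdgfc, a growth factor of the platelet-derived family, rose 2.03-fold in embBE VB (1.02, SE 0.14, adjusted p = 0.00234) and 2.57-fold in control VB (1.36, SE 0.14, adjusted p = 0.000667). Igf1, an insulin-like growth factor that promotes myelination, rose in VB and dLGN of both conditions and was 6.03-fold higher in VB than in dLGN of embBE mice at P4 (2.59, SE 0.23, adjusted p = 8.65e-07). Hes1, a repressor downstream of Notch, was 2.76-fold higher in VB than in dLGN of embBE mice at P0 (1.47, SE 0.21, adjusted p = 0.000198). Id2, an inhibitor of helix-loop-helix factors, was lower in VB of control mice at P0 (-1.39, SE 0.31, adjusted p = 0.0235). Between embBE and control mice, 2 lineage genes met the study's threshold, Sox6 (-0.62) and Sema5a (-0.65) in dLGN at P0, both named after their values were seen, where their limma adjusted p was 0.851 and 0.357% of all genes were called lower. No signal gene did.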

How the data were processed

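RNA of each nucleus pool was hybridized to Affymetrix arrays of the whole mouse genome. The authors normalized the signals with RMA, and the deposited values are log2 signals of 45101 probe sets on 24 arrays, used here without rescaling. RMA draws the arrays towards one distribution, which leaves relative differences. Software versions are not given in the sources used here.

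Of the probe sets, 34958 carried 1 gene symbol in the platform annotation (symbols updated through Entrez identifiers for 34754), 932 carried several and 9211 none. Each of 18194 genes was read by its probe set with the highest mean over all arrays. limma 3.58.1 (R 4.3.3; plots and tables with Python 3.11.15, pandas 2.3.3 and matplotlib 3.10.9) was fitted to all genes, on the 12 arrays of a nucleus for embBE against control and P4 against P0, and on 24 arrays for VB against dLGN and differences between nuclei. The fit on 24 arrays held the label number pair as a random block (estimated correlation -0.0196). embBE calls used the threshold of the study (1.5-fold, unadjusted p of 0.05), and all other calls a Benjamini-Hochberg adjusted p of 0.05. The fit was tested on simulated data.

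All members are given by role. Given in full were members called between embBE and control, the 8 members with the largest mean change with age among those that passed, up to 6 that passed between nuclei, and Pdgfra, Cspg4, Olig2 and Sox10, with up to 8 other genes of the lineage or its signals. Other cell types were given by list. Any other gene, such as Nkx2-2, was chosen after its values were seen, and the members and lists were chosen with earlier results of these data known. Alternatives were the methods' t-test, the mean of a gene's probe sets, leaving out weak genes (gene mean under the median of 7.25), fits of the compared groups alone, cyclic loess, median centring, replicate blocks and leaving out arrays.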

Additional observations from a re-analysis of the deposited data

Results flagged for a closer look

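Mag, the adhesion protein between sheath and axon, was at 7.09 on dLGN P0 embBE array 39_2, against 6.98 to 6.99 on the other 3 embBE arrays of that group, which stood it apart by Dixon's gap (32 groups of 4 arrays were examined, and chance sets apart about 1 in 20). The span of the 4 values is small beside the control values of 7.17 and 7.41.

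Nfasc had age differences of opposite sign in VB and dLGN of control mice (0.53 and -0.25), neither of which passed. It was at 9.04, 9.43 and 9.10 in P4 VB, against 8.81, 8.64 and 8.53 in P0 VB, and at 8.11, 7.91 and 8.15 in P4 dLGN, against 8.24 and 8.38 in P0 dLGN, so that every P4 array was higher in VB and lower in dLGN. The difference of the changes was 0.78 (SE 0.21) and did not pass in limma (adjusted p = 0.552). Its values come from 1 of 3 probe sets of Nfasc.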

How the results depend on the processing

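Counts are of the 32 members called, with no shares of all genes beside them, and no direction reversed. Without weak genes 18 members were tested, and Sox8, Bmp4, Matn4 and Aspa, which were called in embBE VB, were not among them. In embBE against control, the 0 calls in VB at P4 and P0 held under all alternatives run. In dLGN at P0 the 0 calls became 1 with only the compared groups, 2 with the first label number as a replicate block and 1 without the control 39_5 arrays (chosen after seeing the data), and 0 to 4 when 1 array was left out. In dLGN at P4 there were 0 to 1 without single arrays. In P4 against P0, embBE VB (11) had 7 without weak genes, 20 with only the compared groups (2 of them lower), 6 by the methods' t-test (1 of them lower) after Benjamini-Hochberg adjustment and 5 to 7 without single arrays. Control VB (9) had 2 with only the compared groups, 0 by the t-test and 7 to 12 without single arrays. The embBE dLGN comparison (1) had 2 with cyclic loess and 0 by the t-test, and control dLGN (0) had 2 with the mean of probe sets, 1 without weak genes and 1 with cyclic loess. In VB against dLGN, embBE at P0 (4) had 7 without weak genes and 2 to 9 without single arrays. Control at P0 (1) had 0 with the mean of probe sets, 2 with median centring, 2 without VB control arrays 35_1 and 36_3, 0 without the 39_5 arrays and 0 to 2 without single arrays. At P4, embBE (9) had 5 with the mean of probe sets and 2 to 7 without single arrays, and control (7) had 2 to 8. Differences between nuclei of the embBE effect at P0 and of the age change in control mice (0 each) had 0 to 1, with 1 without dLGN P0 control array 35_1. The causes were not tested. Without the replicate block the VB against dLGN counts were 6 for embBE at P0, 1 for control at P0, 9 for embBE at P4 and 8 for control at P4. Deviations of arrays with the same number pair correlated between -0.55 and 0.72 across nuclei, and of arrays with the same first number between -0.20 and 0.76 across conditions at P4. The first number was therefore used only as an alternative, while the number pair stayed a random block in the VB against dLGN fit, where the estimated correlation was near 0. The weakest signals (Mog, Cldn11, Ermn) limit what the arrays can show of those genes.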
